A study of Mus musculus with 8 samples.

Results

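The Matn1 to Ptpru valley is a stretch of mouse chromosome 4 in which the replication timing score falls from a high shoulder to below 0 and rises again. It was taken as the 280 bins of 5 kb at positions 130500000 to 131895000 of the mm10 build, of 31301 bins in the chromosome 4 table. All 280 had a score in every profile. The stretch was picked because both deletion profiles scored later there, so every difference between genotypes given here is a description with no test. A two-sided exact permutation test of 2 profiles against 2 could in any case give no p smaller than 1 in 3.

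The cells were mouse embryonic stem cells, and Repli-seq, which compares DNA copied early and late in S phase, gave their replication timing. Control cells were JM8N4, and the other group carried a Klf4 enhancer deletion. The sources used here do not give the deletion's coordinates, whether it is on 1 or both alleles, or how many clones were used. Both groups received a 2 h pulse of BrdU, a thymidine analog, and flow cytometry then split them into an early and a late fraction of S phase. BrdU-containing DNA from 40000 cells per fraction was pulled down and sequenced. The 8 libraries make 4 profiles, each from 1 early and 1 late library: control 1, control 2, deletion 1 and deletion 2. The labels do not say whether the profiles of a genotype came from separate cultures, so the spread between them may be technical. The data hold no expression values, so the identity of the cells was not checked against marker genes. The valley begins 74968 kb beyond the end of Klf4, and the question is where its edges lie in control and in deletion cells.

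Chromosomes replicate in domains: some regions fire their origins early in S phase, others late, and transition regions join them. Early domains are usually rich in genes and open chromatin, and late domains are usually poor in genes. A late valley between early shoulders is copied by forks that move in from both sides or by origins that fire late within it. Higher scores were read as earlier replication because positive mean scores held 15.1 protein-coding genes per Mb and negative ones 2.96. Scores carry no unit, as their log base is not stated in the sources used here. Depth is unknown, because the table holds scores alone.

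Lower coordinates are called left and higher coordinates right. Of the genes described here, the left shoulder holds Nkain1, Sdc3, Laptm5 and Matn1, and the right shoulder holds Ptpru, Mecr and Srsf4. Between the end of Matn1 at 130955476 and the start of Ptpru at 131768457 lie 813 kb with no protein-coding gene and 11 long noncoding RNA genes. Of 1191 stretches free of protein-coding genes on the chromosome, 28 were at least as long, this one included. Matn1 encodes matrilin 1, a protein of cartilage matrix, and is transcribed toward the valley. Ptpru encodes a receptor-type tyrosine phosphatase, and its annotated promoter is at the far end of the gene, so its 3 prime end faces the valley.

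Of the 17 genes with a promoter in the RefSeq table of GRCm38.p6 (the same build as mm10), 4 are printed here: those of the 2 coding genes that border the stretch without coding genes, and those of 2 long noncoding RNA genes, Gm42318 and Gm42320, whose starts fall between the edges of the mean control and the mean deletion profile. The Gm42318 start lies inside the late valley of control 1 as well, just past that profile's own left edge. Both noncoding genes were picked after their values were seen. Each line gives the 250 bases before the annotated start, 5 prime to 3 prime on the gene's own strand, with CG dinucleotides in capitals. Matn1 is at chr4:130944135-130944384 (plus strand), Gm42318 at chr4:131156096-131156345 (plus), Gm42320 at chr4:131617187-131617436 (plus) and Ptpru at chr4:131838279-131838528 (minus).
Matn1: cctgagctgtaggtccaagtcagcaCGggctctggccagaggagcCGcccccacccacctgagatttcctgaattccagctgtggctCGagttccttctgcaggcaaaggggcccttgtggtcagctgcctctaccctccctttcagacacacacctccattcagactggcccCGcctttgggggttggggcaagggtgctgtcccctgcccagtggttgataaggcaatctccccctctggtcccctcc
Gm42318: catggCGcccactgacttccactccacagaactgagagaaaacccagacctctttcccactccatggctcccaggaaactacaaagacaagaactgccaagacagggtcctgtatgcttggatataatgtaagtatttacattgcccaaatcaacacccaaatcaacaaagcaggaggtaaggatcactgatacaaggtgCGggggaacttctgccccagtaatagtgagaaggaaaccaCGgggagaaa
Gm42320: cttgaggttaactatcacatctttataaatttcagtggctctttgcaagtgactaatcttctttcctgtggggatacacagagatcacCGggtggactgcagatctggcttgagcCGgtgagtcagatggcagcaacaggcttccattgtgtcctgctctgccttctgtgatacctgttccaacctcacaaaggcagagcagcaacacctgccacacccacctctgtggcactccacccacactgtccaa
Ptpru: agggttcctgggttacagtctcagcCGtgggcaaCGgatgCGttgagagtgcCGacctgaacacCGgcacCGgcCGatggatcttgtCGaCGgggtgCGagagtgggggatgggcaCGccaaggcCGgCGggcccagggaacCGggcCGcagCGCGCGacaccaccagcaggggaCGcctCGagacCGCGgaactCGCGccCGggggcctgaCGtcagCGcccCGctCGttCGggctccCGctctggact

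CG dinucleotides, which read the same on both strands, numbered 4 in the Matn1 promoter, 3 in Gm42318, 2 in Gm42320 and 31 in Ptpru. Promoters with 10 or more were 54.7% of 1067 protein-coding and 15.8% of 565 noncoding promoters of the chromosome, with 1 promoter per gene in the same 250 bases. Among the genes described here, 5 of 7 protein-coding promoters passed that number: Nkain1 with 36, Sdc3 with 32, Ptpru with 31, Mecr with 14 and Srsf4 with 37. Matn1, with 4, and Laptm5, with 5, did not. None of the 10 noncoding promoters reached it, and they held 0 to 7. GC content was 62.0% in Matn1, 48.0% in Gm42318, 50.8% in Gm42320 and 71.2% in Ptpru.

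In every profile the score fell below 0 in part of the stretch without protein-coding genes. The name of late valley thus held for that part and not for the shoulders. The number of bins below 0 was 92 in control 1, 79 in control 2, 110 in deletion 1 and 105 in deletion 2. Both deletion profiles thus had more bins below 0 than either control, and most bins of the region lay above 0 in every profile. The lowest score was -2.05 in control 1 and -1.19 in control 2, and -2.11 in deletion 1 and -1.80 in deletion 2. On the deposited scale depth overlapped between genotypes, because control 1 was lower than deletion 2. The lowest points lay at 131390, 131430, 131425 and 131410 kb in the same order, all within 40 kb of each other. Those minima were late but not extreme: 33.0% and 39.1% of the chromosome's positions scored lower in control 1 and 2, against 31.2% and 27.5% in deletion 1 and 2. By this rank within each profile the genotypes did not overlap, although control 1 and deletion 1 were close.

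**Figure D1:**
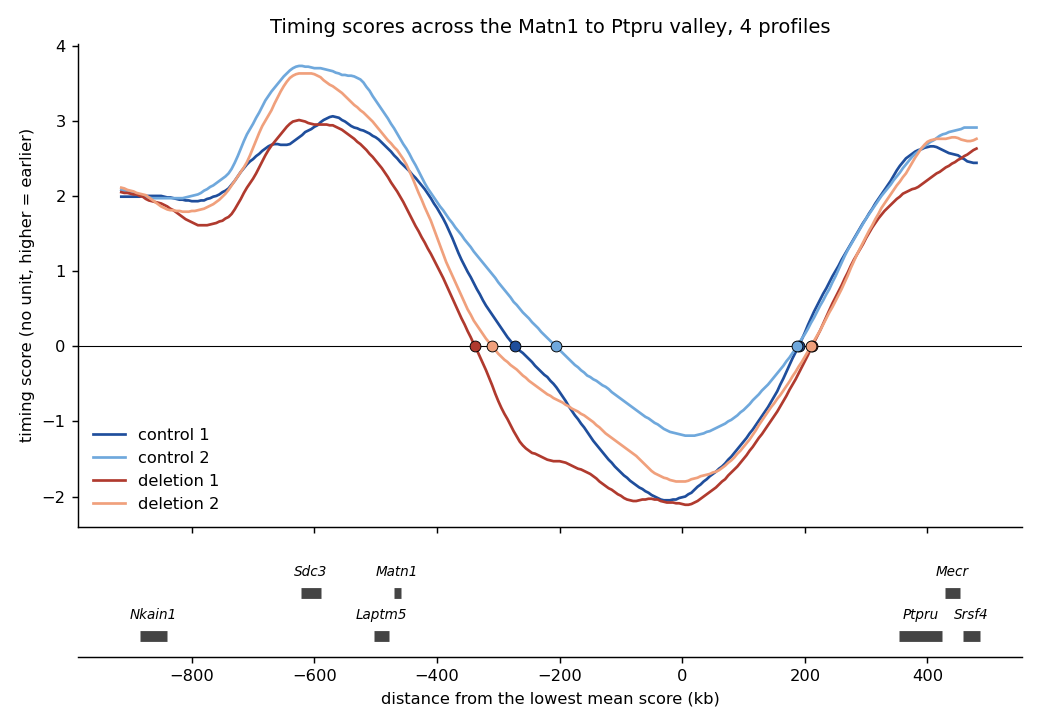
Vertical axis, timing score without unit (higher means earlier); horizontal axis, distance in kb from the lowest mean score for the 4 profiles, with circles at the crossings of 0 and the 7 protein-coding genes described here below. On the left the deletion crossings at 131077 and 131105 kb precede the control crossings at 131142 and 131209 kb, and on the right the 2 genotypes lie 22.7 kb apart.

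An edge is the first place where a profile crosses a score of 0 going outward from its own lowest point, interpolated between bins. The left edge lay at 131142 kb in control 1, 131209 kb in control 2, 131077 kb in deletion 1 and 131105 kb in deletion 2. Both deletion edges were thus nearer Matn1 than both control edges. Means were 131176 ± 46.9 kb in control and 131091 ± 19.9 kb in deletion cells (SD, n = 2 each), a shift of -84.8 kb. Within replicate number 1 the shift was -65.6 kb and within number 2 it was -103.9 kb. The 2 controls differed from each other by 66.4 kb, as much as the shift within number 1, and the 2 deletion profiles by 28.1 kb. Without control replicate 2 the shift was -51.6 kb, and without the other profiles in turn it lay between -70.7 and -117.9 kb. From the end of Matn1, the mean control profile stayed above 0 for 220.8 kb and the mean deletion profile for 132.1 kb.

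The right edge lay at 131605 kb in control 1, 131602 kb in control 2, 131627 kb in deletion 1 and 131625 kb in deletion 2. Both deletion edges were nearer Ptpru than both control edges. Means were 131603 ± 1.70 kb and 131626 ± 1.33 kb (SD, n = 2 each), a shift of 22.7 kb, which is under 5 bins. It was 22.4 kb within number 1 and 22.9 kb within number 2 at a score of 0 on the deposited scale. The numbers were further apart at a score of -0.5, with 19.8 and 31.8 kb, and after median centring, with 23.7 and 40.5 kb. Centring also places the edge at a lower deposited score, the median of each column. Replicate 2 minus replicate 1 was -2.41 kb in control and -1.89 kb in deletion cells, less in size than the step of 5 kb between bins. At a score of 0 on the deposited scale the right shift was thus smaller than the left shift and larger against the spread between its replicates. The 3 prime end of Ptpru lay 164.8 kb beyond the right edge of the mean control profile and 142.2 kb beyond that of the mean deletion profile.

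Valley width was 462 kb in control 1, 393 kb in control 2, 550 kb in deletion 1 and 520 kb in deletion 2. Both deletion profiles were wider than both controls, by 107.4 kb on average (428 ± 48.6 kb against 535 ± 21.2 kb, SD, n = 2 each). Widening was 88.0 kb within number 1 and 126.8 kb within number 2. The valley was lopsided in the deletion profiles. From the left edge to the lowest point there were 248 and 221 kb in control 1 and 2, and 348 and 305 kb in deletion 1 and 2. From the lowest point to the right edge there were 215 and 172 kb in the controls and 202 and 215 kb in the deletion profiles, which overlapped.

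These sizes depend on the score that defines an edge. With an edge placed midway between each profile's own lowest score and its own highest score on that side, the left shift was -40.5 kb (-47.6 kb in number 1 and -33.3 kb in number 2) and widening was 49.7 kb. The right shift was then 9.25 kb on average, with 21.4 kb in number 1 and -2.95 kb in number 2, so its direction differed between numbers.

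The mean shift of the left flank was larger at lower scores, which did not hold at every level within each number. At a score of 1.5 the left crossings were at 131037 and 131053 kb in the controls and 130987 and 131013 kb in the deletion profiles, a shift of -44.9 kb (-49.9 kb in number 1 and -39.8 kb in number 2). At a score of 1 it was -54.6 kb (-45.1 and -64.1 kb), at 0.5 it was -68.0 kb (-50.8 and -85.3 kb), and at -0.5 it was -105.4 kb (-100.8 and -110.1 kb). Both deletion crossings lay left of both controls at these levels. At a score of -1 the shift was -107.5 kb (-115.8 and -99.3 kb), but the crossings of control 1 at 131247 kb and deletion 2 at 131268 kb overlapped. Replicates also spread further apart down the flank, with control crossings 16.0 kb apart at a score of 1.5 and 119.6 kb apart at -1.

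On the right flank the shift changed less from level to level, at 18.4 kb for a score of 1.5, 20.1 kb for 1, 22.3 kb for 0.5 and 25.8 kb for -0.5. Genotypes did not overlap at any of the 6 levels on this side. At a score of -1 the controls crossed at 131539 and 131490 kb and the deletion profiles at 131560 and 131544 kb. There the shift of 37.1 kb was smaller than the distance between the controls.

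**Figure D2:**
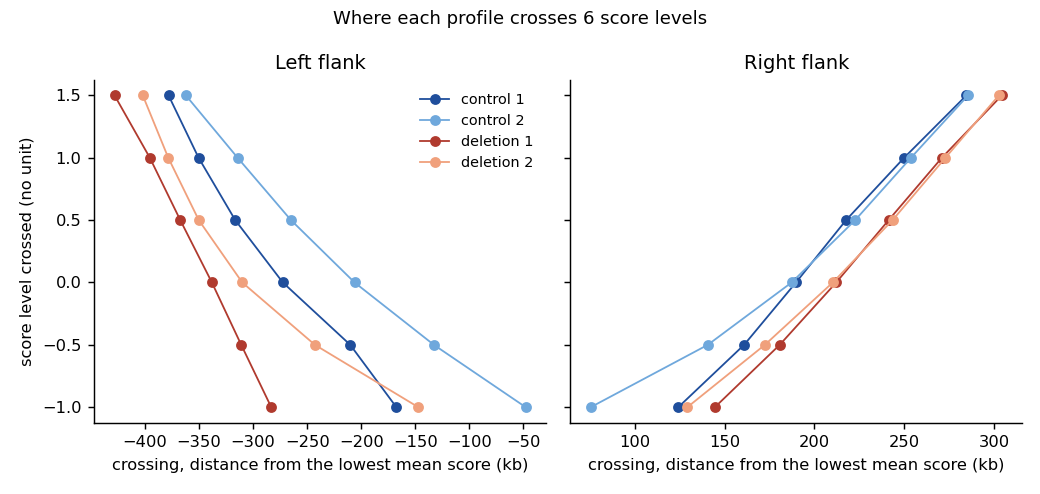
Places where each profile crosses 6 score levels (vertical axis, no unit) on the left and the right flank, in kb from the lowest mean score. On the left the mean shift grows from -44.9 kb at a score of 1.5 to -107.5 kb at -1, and on the right both deletion profiles lie beyond both controls at every level.

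Steepness differed on the left flank. Over the 100 kb centred on each profile's own left edge, the score changed by -0.97 and -0.80 in control 1 and 2, against -1.80 and -1.06 in deletion 1 and 2. Both deletion profiles dropped more steeply there, although deletion 1 and deletion 2 differed by 0.74. At the right edge the change over 100 kb was 1.65 and 1.25 in the controls and 1.62 and 1.41 in the deletion profiles, and genotypes overlapped.

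Bin by bin, the deletion score was below the control score within both replicate numbers at 245 of 280 bins, beside 15.3% of all 30659 positions. Both deletion profiles lay below both controls at 145 of the 280, beside 5.86% of all positions. As the bins were picked on this contrast, nothing is read from those counts. The reverse, both deletion profiles above both controls, occurred at 0 of the 280, beside 16.0% of all positions. The bins where genotypes did not overlap fell into 3 runs: 130550000 to 130684999, 130975000 to 131234999 and 131475000 to 131804999. The first run begins within Nkain1, the next on the left flank and the last on the right flank and into Ptpru. The lowest part of the floor is in none of them.

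On the left flank the mean difference of that run was -0.92 in number 1 and -0.73 in number 2. Number 1 had its lowest difference at 131160000, where control 1 scored -0.13 and deletion 1 scored -1.36. Number 2 had its lowest at 131110000, where control 2 scored 0.91 and deletion 2 scored -0.05. The 2 numbers thus reached their lowest differences 50 kb apart on the same flank. Averaged over both numbers, the lowest difference was -1.04 at 131155000, the bin that holds the Gm42318 promoter printed above. There the scores were -0.09 and 0.45 in control 1 and 2, against -1.32 and -0.39 in deletion 1 and 2. At the Gm42320 promoter, on the right flank, they were 0.18 and 0.16 in the controls and -0.20 and -0.14 in the deletion profiles, so this start was just above 0 in both controls and just below 0 in both deletion profiles.

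Over the late segment, the 85 bins between the edges of the mean control profile, scores averaged -1.32 in control 1, -0.66 in control 2, -1.67 in deletion 1 and -1.23 in deletion 2. On the deposited scale the genotypes overlapped, since control 1 was lower than deletion 2. The columns also had different medians over the chromosome: -0.79 (control 1), -0.73 (deletion 1), -0.37 (control 2), -0.21 (deletion 2). Taken relative to its own column's median, the segment scored lower in each deletion profile than in either control. Median centring also moved the edges of the mean control profile, so the segment drawn between them no longer held the same 85 bins. Over that redrawn segment the difference was -0.52, with -0.30 in number 1 and -0.73 in number 2. Without centring, means over the 85 bins were -0.99 ± 0.46 and -1.45 ± 0.31 (SD, n = 2 each), a difference of -0.46. Within number 1 it was -0.35 and within number 2 it was -0.57. All 85 bins were lower in deletion within both numbers, beside 15.3% of all positions. At 37 of them both deletion profiles lay below both controls, beside 5.86% of all positions. These bins were picked on this contrast, so nothing is read from the counts. The segment difference of -0.46 was smaller than the 0.65 between the 2 controls. It was -0.13 without control replicate 2, -0.24 without deletion replicate 1, -0.68 without deletion replicate 2 and -0.79 without control replicate 1, comparisons that leave the replicate numbers uneven between genotypes.

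The floor behaved differently in the 2 numbers. Over the 200 kb centred on the lowest mean score, the profiles averaged -1.80 (control 1), -1.02 (control 2), -1.96 (deletion 1) and -1.62 (deletion 2). That is a difference of -0.16 in number 1 and -0.60 in number 2. Over the 200 kb centred on the left control edge, differences were -0.93 and -0.78 in number 1 and 2, and over the 200 kb centred on the right control edge they were -0.31 and -0.36. Control 1 and control 2 differed by 0.59 around the left edge and by 0.12 around the right edge. Number 1 thus had its difference mainly on the flanks, and number 2 on the flanks and the floor.

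**Figure D3:**
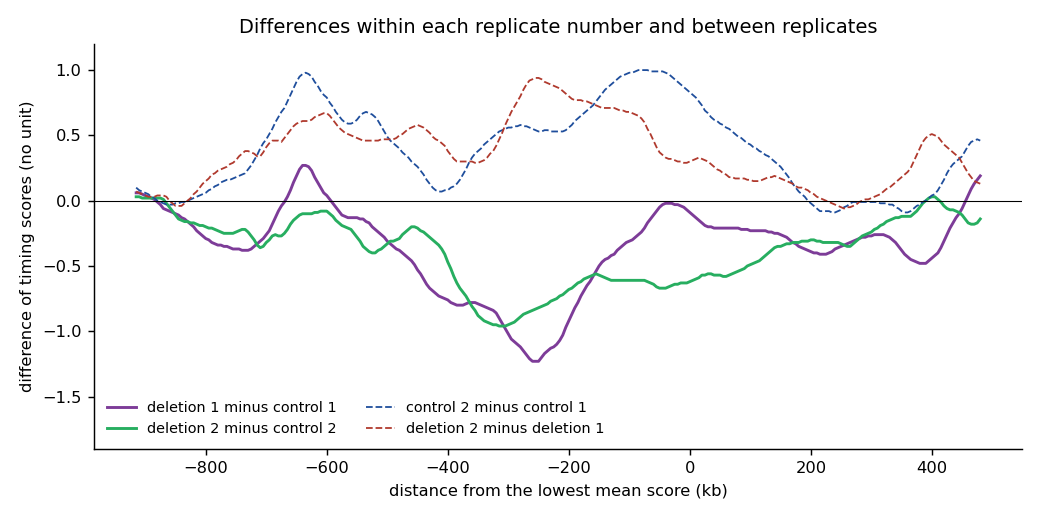
Score difference (vertical axis, no unit) against distance in kb from the lowest mean score, as deletion minus control within each replicate number (solid) and as replicate 2 minus replicate 1 within each genotype (dashed). Both solid lines are lowest on the left flank, at -1.23 in number 1 and -0.96 in number 2, and at the floor they separate.

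Along the 280 bins the 2 difference tracks had a Pearson correlation of 0.65 and a Spearman correlation of 0.48, and the Pearson correlation over all 30659 positions was 0.31. This is a description across neighbouring bins that share a smoothed score and were chosen for lower deletion scores. The score of adjacent bins changed by a median of 0.033 to 0.040 per profile. Replicate 2 scored higher than replicate 1 over the region in both genotypes, by 0.40 in control and 0.37 in deletion cells, as large as the mean genotype difference of -0.37 over the 280 bins. Across the whole chromosome the median difference, deletion minus control, was 0.16, opposite in sign to the median of -0.33 over the valley's bins.

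At its ends the region met no step. At 130495000, just outside, the 4 scores were 1.98, 2.10, 2.05 and 2.13 in control 1, control 2, deletion 1 and deletion 2, and at 130500000, just inside, they were 1.99, 2.08, 2.05 and 2.11. At 131895000, just inside, they were 2.44, 2.91, 2.63 and 2.76, and at 131900000, just outside, 2.45, 2.91, 2.66 and 2.79. The deletion mean exceeded the control mean by 0.02 to 0.05 at all 4 bins.

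The 7 protein-coding genes described here were early in every profile, with scores from 1.94 to 3.71. Deletion scores were lower within both numbers for 5 of the 7, beside 14.4% of 1301 genes of the chromosome, and for 2 of the 7, Nkain1 and Ptpru, both deletion profiles lay below both controls, beside 6.53%. Their median difference was -0.12, against 0.14 over all 1301 genes. These genes lie in bins chosen on this contrast, so the counts describe the choice.

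Among the genes of the cell surface, membrane and matrix, Sdc3, which encodes the heparan sulfate proteoglycan syndecan-3, sat at the earliest part of the left shoulder. It scored 2.88 and 3.71 in control 1 and 2, against 2.97 and 3.62 in deletion 1 and 2, and the genotype means were both 3.30. Laptm5, a lysosomal membrane protein gene of blood cells, scored 2.72 and 3.18 in the controls and 2.39 and 2.87 in the deletion profiles. The neighbouring Matn1 scored 2.52 and 2.86 against 2.09 and 2.63. Both genes overlapped between genotypes while being lower within each number, by -0.34 and -0.31 for Laptm5 and by -0.43 and -0.23 for Matn1. From Sdc3 to Matn1 the difference thus went from about 0 to -0.33, still 220.8 kb or more from the left edge of the control profile.

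On the right shoulder Ptpru scored 2.57 in both controls and 2.14 and 2.52 in deletion 1 and 2. Its difference was -0.43 in number 1 and -0.05 in number 2, so it rested mainly on deletion 1. Nkain1, whose product interacts with the sodium pump, had the narrowest spread of the 7, at 2.00 and 1.98 in the controls and 1.94 in both deletion profiles, a difference of -0.05. Its genotypes did not overlap, but the size depended on the scaling, at -0.16 after median centring and -0.25 after quantile normalization.

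Srsf4, a gene of the SR family of splicing factors, scored 2.46 and 2.91 in the controls and 2.58 and 2.75 in the deletion profiles, with differences of 0.12 in number 1 and -0.16 in number 2. Mecr, which encodes a reductase of mitochondrial fatty acid synthesis, scored 2.57 and 2.85 against 2.41 and 2.77. Both genes overlapped between genotypes. Just beyond the chosen bins, Snrnp40, a gene of the U5 spliceosome particle, differed by 0.05 and Tmem200b, a transmembrane protein gene, by 0.08, both with opposite signs within the 2 numbers.

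**Figure D4:**
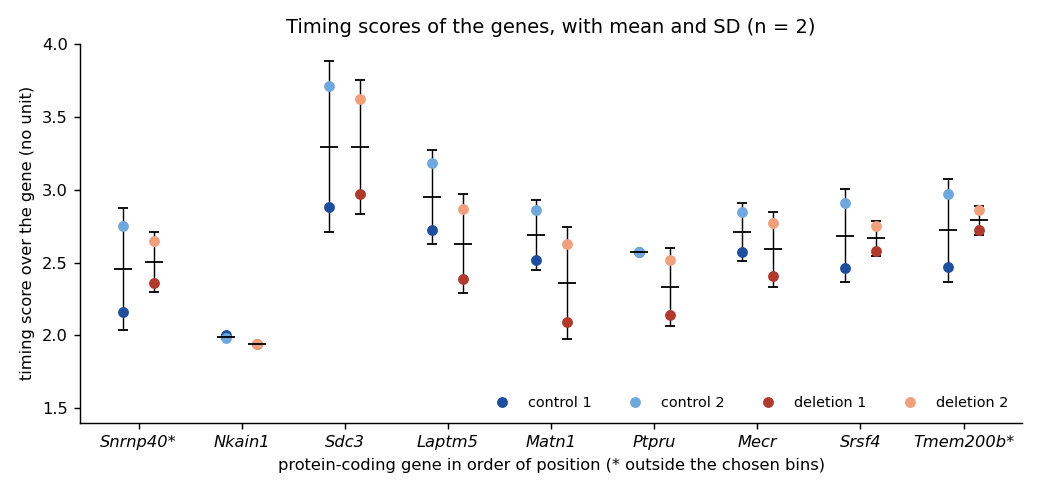
Timing score over each gene (vertical axis, no unit) for 7 protein-coding genes of the region in order of position and, with an asterisk, the nearest gene beyond each end, as points per profile with mean and SD (n = 2). All points lie above 1.9, and the genotypes separate for Nkain1 and Ptpru.

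The left shoulder also had a shallow dip, with its lowest bin between 130555 kb (control 2, inside Nkain1) and 130635 kb (deletion 1, beyond Nkain1). The lowest score ahead of the Sdc3 plateau was 1.93 in control 1, 1.97 in control 2, 1.61 in deletion 1 and 1.79 in deletion 2. Deletion profiles were thus lower by 0.33 in number 1 and 0.18 in number 2, and both dips stayed early. The plateau itself peaked at 3.06 and 3.73 in control 1 and 2, against 3.01 and 3.63 in deletion 1 and 2, with the profiles ordered by replicate number and not by genotype.

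No protein-coding gene overlapped the late segment, and 4 long noncoding RNA genes and 1 small nucleolar RNA gene did. The snoRNA gene Gm25261, nearest the left edge, scored -0.86 and -0.21 in control 1 and 2, against -1.59 and -0.83 in deletion 1 and 2. Gm35634, at the lowest point, scored -2.01 and -1.18 against -2.10 and -1.80. The overlapping genes Gm46723 and Gm35779 had mean differences of -0.39 each, and Gm831 of -0.38, with -0.21 in number 1 and -0.54 in number 2. At Gm831 the genotypes did not overlap, with controls at -1.47 and -0.97 and deletion profiles at -1.68 and -1.52. They overlapped at the other 4, although Gm46723 and Gm35779 did not overlap either when a position was read as the end of its bin.

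Compared with the other late valleys of the chromosome, this one was narrow and shallow. By the same edge rule, 37 valleys of at least 200 kb had edges in all 4 profiles, with a median control width of 1194 kb and a median lowest mean score of -2.73. The valley described here had rank 9 from the narrowest and rank 11 from the shallowest, with a lowest mean score of -1.77. It was 1 of 7 of the 37 (18.9%) that were wider in deletion within both numbers, while 14 were narrower within both. The median width change over the 37 was -23.3 kb, and the change of 107.4 kb had rank 4 from the widest. The largest widening came mostly from number 1, with 832.16 kb there and 34.65 kb in number 2. The next ones were similar in both numbers, at 224.08 and 278.27 kb and at 120.49 and 112.56 kb. The largest narrowing was -3039.81 kb in number 1, against 92.67 kb in number 2. Valleys with such unequal changes were kept in the ranks. Both edges of the Matn1 to Ptpru valley moved outward within both numbers, with rank 4 for the left and rank 12 for the right in outward shift. Of the 74 edges taken singly, 25.7% did so, a share that does not count valleys with both edges outward. Control replicates differed by a median of 39.1 kb per edge over the chromosome, against 66.4 kb at the left edge of this valley and a smaller gap, of -2.41 kb, at its right edge. Of the 37, 2 were a single valley in at least 1 profile and so shared an edge there. Without them all 5 ranks were the same, 7 of 35 valleys were wider within both numbers, the median control width was 1122 kb and the median width change -16.4 kb. Since the region was picked for its difference, these ranks describe it and test nothing.

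**Figure D5:**
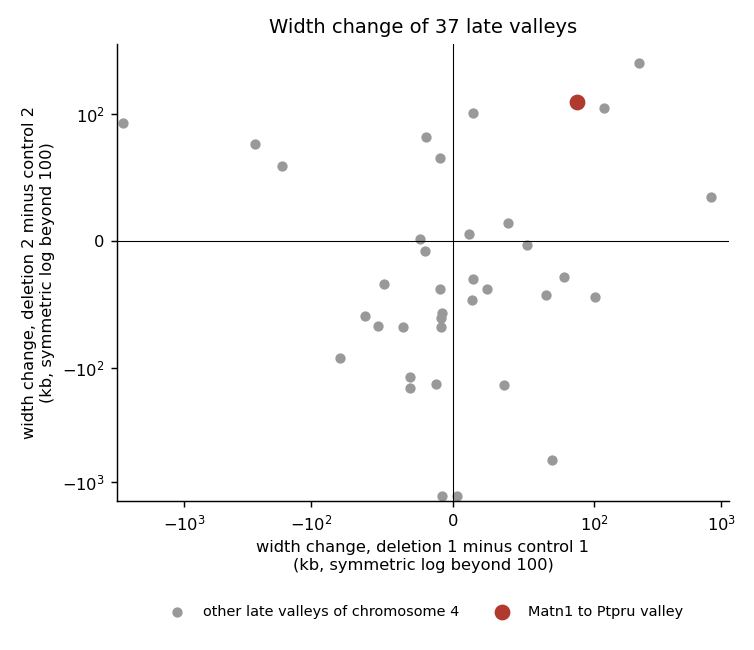
Change of width in kb, deletion minus control, within replicate number 1 (horizontal axis) and number 2 (vertical axis) for 37 late valleys, on axes that are linear to 100 kb and logarithmic beyond. The Matn1 to Ptpru valley (red) is at 88.0 and 126.8 kb, and 7 of the 37 lie in the upper right, where both changes are positive.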

How the data were processed

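The table deposited by the authors holds a timing score every 5 kb in each of 4 profiles. Its name says that they were normalised by interquartile range, which was 4.60 in every column. Per the submitters' processing notes, Bowtie2, SAMtools, bedtools and mm10 were used (no versions). Smoothing and log base are not given in the sources used here. Columns were matched to genotypes by name. The number 1 is given by the column headers only. Of 31301 positions, 642 lacked a score in at least 1 profile and were left out. A position was read as the start of its bin.

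Edges, widths, segment means and gene means (over overlapping bins) were computed in Python 3.11.15 with numpy 2.4.6 and pandas 2.3.3. The late segment lies between the edges of the mean control profile. Other late valleys were runs below 0 in the mean of the 4 profiles. The edge finder was tested on simulated profiles. No test was run, since the bins were picked on the genotype contrast. By rule, protein-coding genes overlapping the bins, the nearest beyond each end and other genes in the late segment were named; 1 gene is not reported here and is left out of the gene counts. The members and lists were chosen with earlier results of these data known.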

Additional observations from a re-analysis of the deposited data

How the results depend on the processing

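The mean left shift, right shift, widening and late-segment difference kept their direction under every alternative run, although the midway edge turned the right shift within number 2 (-2.95 kb). After median centring the left shift was -121.20 kb, the right shift 32.07 kb and widening 153.27 kb. Scaling by each profile's own interquartile range as well gave the same values, since that range was 4.60 in every column, and is no second check. A centred score of 0 is each column's median, from -0.79 to -0.21 on the deposited scale. These edges thus lay lower on the flanks than the main ones, at a different deposited score in each profile. Quantile normalization gave a right shift of 25.47 kb, 244 bins without overlap in place of 145, and 29.73% of valleys wider within both numbers in place of 18.9%. Those scalings move the median difference of all positions from 0.16 to 0.05 (centring) and 0.01 (quantile). An edge at a score of -0.5 gave a right shift of 25.81 kb, and one midway between minimum and shoulder gave -40.47, 9.25 and 49.72 kb for left shift, right shift and widening. The cause of these changes was not tested. The other 44 values, which include shares of the chromosome's valleys, lay within the spread between replicates, or for counts and shares within 1.5 times. Many of them could not have done otherwise. With 2 profiles per genotype, leaving out 1 profile cannot move a mean difference beyond that spread. Values with the replicate block equal the main ones by construction. The number 44 is thus no measure of stability. The Nkain1 difference of -0.05 was -0.07 with a position read as the bin's end, -0.16 after median centring and -0.25 after quantile normalization. Gene differences changed sign for Sdc3 by its midpoint bin (0.01), and for Snrnp40 (-0.06 and -0.11) and Tmem200b (-0.03 and -0.07) after median centring and quantile normalization. These 2 scalings of gene scores, and the count of valleys without shared edges, were chosen after seeing the data. With the replicate block, the mean of the differences within numbers was -84.76 kb (left), 22.68 kb (right) and 107.44 kb (width), equal to the unpaired values by construction. Number 2 minus number 1 correlated at 0.64 between genotypes over all positions, and no label ties same-numbered profiles to a shared culture or day. Depth is unknown and sets no limit that can be stated.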
